A study of Rattus norvegicus with 12 samples.

Results

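A set of 8 genes of the peripheral nerve was followed through the injured and recovering pelvic floor muscle of the rat. They were picked by symbol from a table of 30206 genes, and all 8 were found and held enough counts to be tested. Mbp, Pmp22 and Prx encode proteins of the myelin sheath. Sox10 and S100b mark Schwann cells as such. Ngfr, Gap43 and Gfra3 are genes that Schwann cells switch on when they leave myelination and take up repair.

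The RNA came from the pubocaudalis, one of the pelvic floor muscles, of female Sprague-Dawley rats aged 3 months. Every rat of every group had been pregnant and had received a simulated birth injury (SBI), in which a balloon distended the vagina late in gestation, so no group was uninjured. After delivery the rats either had their pups removed and did not lactate (named SBI, after 1wk or 3wk for the time) or kept them and lactated (named SBI + Lac), and muscle was taken at 1 week or at 3 weeks, the time of weaning. Each of the 12 libraries was a pool of RNA from 2 rats, with 3 libraries from the 6 rats of each group, so that n = 3 counts pools and the spread between single rats was not seen.

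Schwann cells wrap the axons of peripheral nerves, and a myelinating Schwann cell builds its sheath from a small set of very abundant proteins under the control of the transcription factors Sox10 and Egr2. When the axon is lost the cell stops making myelin, keeps Sox10, and turns on genes such as the neurotrophin receptor Ngfr, while axonal regrowth brings the myelin genes back. In a muscle these cells lie along the nerve branches and cap the endplates, and stretch during delivery is a known cause of denervation in the pelvic floor. In bulk tissue fewer cells of a type and less RNA per cell cannot be told apart, and a piece of muscle that holds a nerve branch carries more of all of these genes.

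The start regions of Prx and Pmp22 are shown because these myelin genes varied together across the libraries, as described further on. Of the 8 genes 5 were matched in the RefSeq table of rat promoters (build GRCr8), and printed are the 250 bases before the start of each gene, 5′ to 3′ on the strand of the gene. The Prx region lies at chr1:91914171-91914420 on the plus strand and the Pmp22 region at chr10:48294682-48294931 on the plus strand. Capitals mark GTGGG, a core of the sites that the Egr family of factors binds, which is written as CCCAC where it lies on the other strand.
Prx: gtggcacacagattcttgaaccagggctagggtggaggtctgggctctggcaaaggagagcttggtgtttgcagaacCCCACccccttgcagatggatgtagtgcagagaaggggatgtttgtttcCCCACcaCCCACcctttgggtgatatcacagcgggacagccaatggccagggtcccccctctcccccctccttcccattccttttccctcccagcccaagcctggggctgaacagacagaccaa
Pmp22: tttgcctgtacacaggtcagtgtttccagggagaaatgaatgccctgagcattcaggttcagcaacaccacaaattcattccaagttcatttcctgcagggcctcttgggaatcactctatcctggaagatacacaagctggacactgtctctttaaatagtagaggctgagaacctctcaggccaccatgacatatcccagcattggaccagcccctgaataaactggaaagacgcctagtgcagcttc
The Prx region held 3 such cores, all on the opposite strand, at 173, 124 and 117 bases before the start, and the Pmp22 region held 0. The S100b region, chr20:12381082-12381331 on the minus strand, held 1. ACAAAG and ACAATG, a pair of SOX-type cores, were searched on both strands and were in neither printed region nor in that of S100b. Of 33469 rat promoter windows of this length 53.5% held GTGGG and 25.3% held either SOX core, so these matches are common letters and describe the windows only.

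Total counts per library ran from 30862144 to 51662983 at 1 week and from 10082734 to 75634391 at 3 weeks. A pair of 3-week libraries, 3wk SBI replicate 1 (10082734 counts) and 3wk SBI + Lac replicate 3 (10704307 counts), were shallower than the rest, and they also had the lowest Mbp, Prx and Sox10 of their groups. The 3-week fold changes of the 8 genes and of the called genes were therefore also computed without them, an alternative chosen after these values were seen. Values below are given as normalized CPM, that is, after TMM scaling for depth, and can be compared between libraries for 1 gene but not between genes, since they are not corrected for transcript length.

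Schwann cell genes were found in every library, and most genes of a list for oligodendrocytes, the myelinating cells of the brain, had few counts. Sox10 was read in all 12 libraries. Prx, a protein of myelinating Schwann cells, was read at 5.26 to 19.6 normalized CPM. Of its 6 genes, Mog, Olig2, Mobp, Opalin and Cldn11 had a highest count in any library of 12, 3, 2, 5 and 35, too few to test, and Sox8, which is also known from other cells, reached 2.02 normalized CPM and was tested. Mbp is made by both kinds of cell.

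Mbp (ENSRNOG00000016516) encodes myelin basic protein, which compacts the sheath. At 1 week it was 11.4, 7.51 and 10.7 normalized CPM in the 3 libraries of 1wk SBI and 9.31, 15.2 and 11.0 in those of 1wk SBI + Lac. At 3 weeks it was 5.47, 34.1 and 16.5 in 3wk SBI, against 22.3, 30.8 and 11.2 in 3wk SBI + Lac. Lactating and non-lactating libraries overlapped at both times, and the 3-week libraries were far more spread than the 1-week ones, with a ratio of highest to lowest of 6.23 in 3wk SBI against 1.51 in 1wk SBI. Group means were 9.86 ± 2.06, 11.8 ± 3.03, 18.7 ± 14.4 and 21.5 ± 9.84 normalized CPM (SD, n = 3 each) at 1 week without and with lactation and then at 3 weeks without and with lactation, and no neighbours in that order differed beyond their spread.

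Prx (ENSRNOG00000018369) encodes periaxin, which ties the outer face of the myelinating Schwann cell to its basal lamina and is needed to keep myelin stable. It measured 8.91, 6.28 and 9.72 normalized CPM in 1wk SBI, and 6.13, 12.9 and 10.6 in 1wk SBI + Lac. In 3wk SBI it was 5.26, 19.6 and 13.4, and in 3wk SBI + Lac 17.4, 18.4 and 7.58. Within each 3-week group and within 1wk SBI + Lac the libraries stood in the same order for Prx as for Mbp, and lactating and non-lactating libraries overlapped at both times.

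Pmp22 (ENSRNOG00000003338) encodes a membrane protein of compact myelin whose dosage is altered in inherited neuropathy, and it is also made by fibroblasts and other cells. Its levels were 47.4, 46.4 and 54.5 normalized CPM in 1wk SBI, against 40.7, 47.3 and 56.0 in 1wk SBI + Lac. In 3wk SBI they were 36.1, 77.5 and 66.8, and in 3wk SBI + Lac 65.6, 71 and 40.7. Pmp22 had the same low and high libraries at 3 weeks as Mbp, but a narrower range, with a ratio of highest to lowest of 2.14 in 3wk SBI.

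Sox10 (ENSRNOG00000011305), the transcription factor that sets and keeps Schwann cell identity, was 2.29, 0.894 and 1.17 normalized CPM in 1wk SBI, against 1.38, 1.73 and 1.12 in 1wk SBI + Lac. Later it was 0.322, 2.97 and 2.15 in 3wk SBI, against 2.34, 2.63 and 1.21 in 3wk SBI + Lac. The lowest value rests on 3 counts. The groups overlapped at both times, and as with Mbp the shallow library of each 3-week group was the lowest.

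S100b (ENSRNOG00000001295), a calcium-binding protein used to stain Schwann cells and also found in fat cells, had group means between 3.65 and 4.62 normalized CPM. It was 5.98, 4.55 and 3.33 normalized CPM in 1wk SBI, against 2.36, 4.44 and 4.13 in 1wk SBI + Lac. The 3-week values were 2.47, 4.83 and 3.77 without lactation and 3.97, 5.45 and 2.31 with it. All 4 groups overlapped.

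Ngfr (ENSRNOG00000005392) encodes the p75 neurotrophin receptor, which repair-type Schwann cells carry and which is also known from fibroblasts, pericytes and muscle precursor cells. At 1 week it was 9.52, 4.32 and 1.87 normalized CPM in 1wk SBI, against 1.54, 1.97 and 3.39 in 1wk SBI + Lac. At 3 weeks it was 3.11, 4.58 and 5.34 in 3wk SBI, against 2.57, 2.70 and 2.86 in 3wk SBI + Lac. The lactating mean was the lower one at both times, 2.30 ± 0.970 against 5.24 ± 3.90 at 1 week and 2.71 ± 0.143 against 4.34 ± 1.13 at 3 weeks (SD, n = 3 each), but at 1 week the library 1wk SBI replicate 3 lay inside the lactating range. At 3 weeks every lactating library was below every non-lactating one.

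Gap43 (ENSRNOG00000001528) encodes a growth-cone protein of regrowing axons that denervated Schwann cells make too. It was 3.03, 2.5 and 2.41 normalized CPM in 1wk SBI, against 2.89, 2.41 and 3.82 in 1wk SBI + Lac. The 3-week values were 2.47, 2.11 and 3.68 without lactation and 1.66, 4.63 and 1.98 with it. The 4 group means lay between 2.65 and 3.04 normalized CPM, closer together than the libraries of any 3-week group.

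Gfra3 (ENSRNOG00000020309) encodes the receptor for artemin, a ligand of the GDNF family, and in nerve it is made by immature and repair-type Schwann cells and by sensory neurons. It was near the limit of detection. Counts were 23, 18 and 32 in 1wk SBI (0.370, 0.304 and 0.750 normalized CPM) and 7, 6 and 6 in 1wk SBI + Lac (0.230, 0.203 and 0.143), so every lactating library was below every non-lactating one at 1 week. At 3 weeks 3wk SBI gave 0, 6 and 95 counts (0, 0.372 and 1.14 normalized CPM) and 3wk SBI + Lac gave 16, 46 and 7 (0.521, 0.748 and 0.769). The 0 counts of 3wk SBI replicate 1 allow a level of up to 0.322 normalized CPM by the limit of 3 counts, for counting error only, and the other libraries of that group still overlapped the lactating ones.

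**Figure D1:**
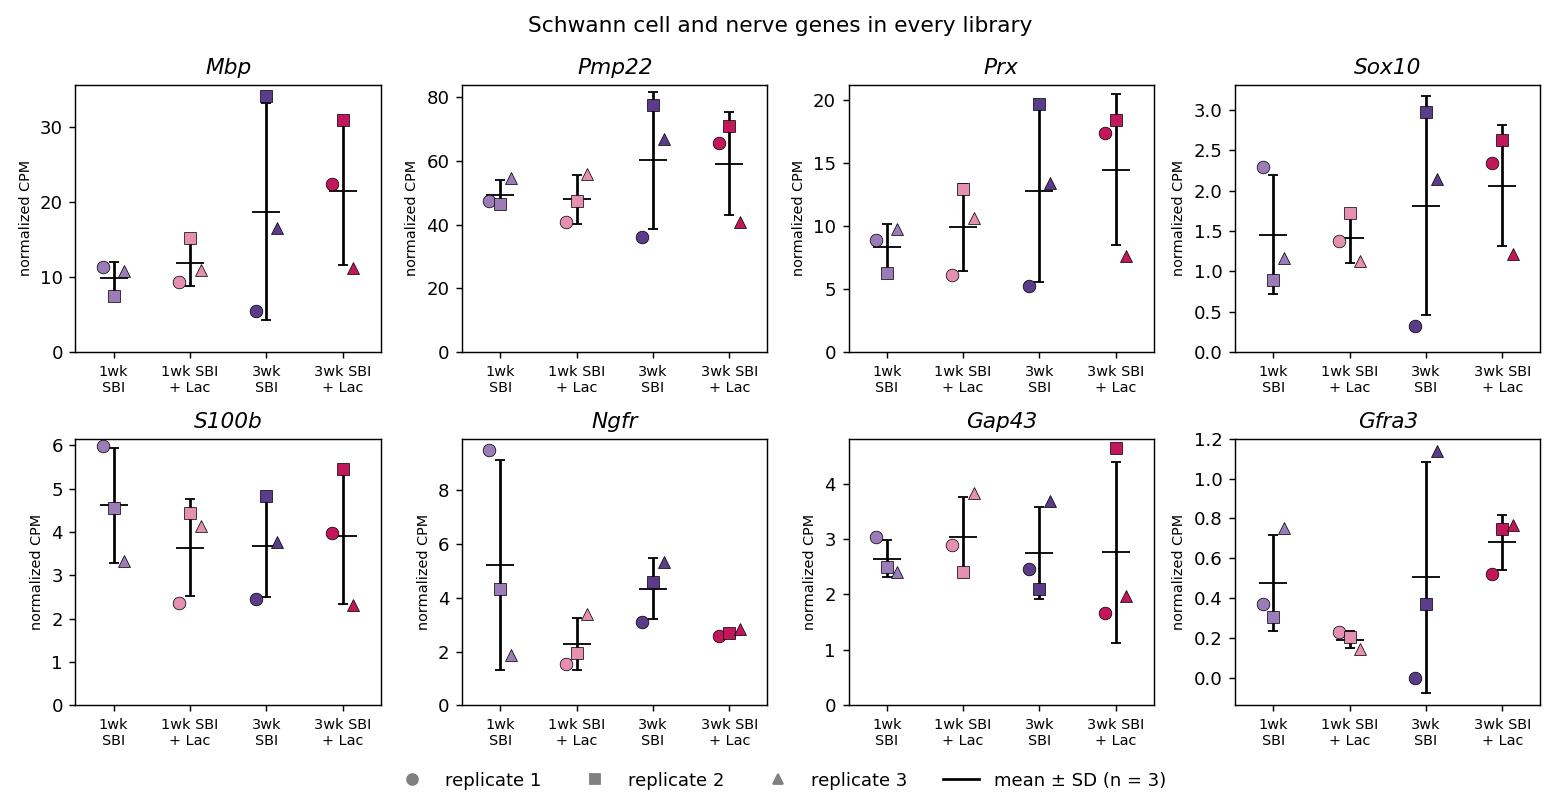
Level of each gene in each of the 12 libraries in normalized CPM (vertical axis, linear and different for each gene), with the 4 groups on the horizontal axis, a symbol per library, and lines for the mean ± SD of 3 libraries. The myelin genes and Sox10 spread widely at 3 weeks, with Mbp from 5.47 to 34.1 in 3wk SBI, while Ngfr in 3wk SBI + Lac lies within 2.57 to 2.86.

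The first comparison asked whether lactation was linked to a different level of nerve genes 1 week after the injury. None of the 8 genes was called, where a call needed both an adjusted p below 0.05 in edgeR's quasi-likelihood test and a log2 fold change beyond 1 in either direction, and 0.253% of the 14599 genes tested were called. The myelin genes were close to no difference, with log2 fold changes of lactating over non-lactating of 0.26 for Mbp (standard error 0.53, adjusted p = 0.829), 0.25 for Prx (0.43, adjusted p = 0.788) and -0.04 for Pmp22 (0.25, adjusted p = 0.952). The 95% interval of the difference ran from -0.94 to 1.46 for Mbp and from -0.59 to 0.51 for Pmp22, so for Pmp22 a change of 1 log2 unit either way lies outside it, and for Mbp a rise of 1 lies inside it and a fall of 1 outside. The identity genes gave -0.06 for Sox10 (interval -1.13 to 1.02) and -0.34 for S100b (interval -1.02 to 0.33).

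The repair-type genes did not move as one group at 1 week. Ngfr had -1.18 as its log2 fold change (standard error 0.47, interval -2.19 to -0.17), with an unadjusted p of 0.0254 and an adjusted p of 0.195 in edgeR, and Gfra3 one of -1.29 (0.74, interval -2.87 to 0.29, adjusted p = 0.356), while Gap43 was at 0.20 (0.34, interval -0.52 to 0.93, adjusted p = 0.783). An unadjusted p under 0.05 was reached by 18.9% of all genes tested and by 1 of the 8, Ngfr. Gfra3 was also the 1 gene of the 8 whose groups did not overlap, against 28.4% of all genes. Whether Ngfr was called depended on a single library. Without 1wk SBI replicate 3, the non-lactating library with the least Ngfr, the log2 fold change was -1.57 and the adjusted p was 0.0191 in edgeR, and without 1wk SBI replicate 1, the one with the most, they were -0.42 and 0.714. Those are the lowest and the highest adjusted p over the 15 alternatives tried for that gene. Over all genes, 235 were called without 1wk SBI replicate 3, against 37 with all libraries.

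Genes of 4 other cell types were mostly negative beside Ngfr at 1 week and those of others were not. Of 10 satellite cell and regenerating fiber genes 9 had a negative log2 fold change (median -0.996, 0 called), and their summed level was 1673 to 3656 normalized CPM in 1wk SBI and 921 to 1350 in 1wk SBI + Lac. Of 10 fibroblast genes 9 were negative (median -0.44, 0 called; 7567 to 10970 against 4410 to 8259), of 10 macrophage genes 9 (median -0.37, 0 called) and of 8 T cell genes all 8 (median -0.84, 0 called). All 9 muscle fiber genes were positive (median 0.49, 0 called). Of 7 smooth muscle and pericyte genes 4 were positive and 3 negative (median 0.21), and of 7 endothelial and 7 adipocyte genes 3 and 4 each (medians -0.06 and -0.08), with 0 called in the 3 lists, and the median of all genes was -0.0038. The non-lactating libraries with the most and the least Ngfr were also the deepest and the shallowest of their group. The part of these cells and of depth in the Ngfr values was not tested.

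At 3 weeks, around weaning, the 8 genes again gave 0 calls in edgeR, against 0.74% of all genes, and 0 with an unadjusted p under 0.05, against 21.1%. The log2 fold changes were 0.22 for Mbp (interval -0.98 to 1.42, adjusted p = 0.853, edgeR), 0.19 for Prx (-0.78 to 1.16), -0.02 for Pmp22 (-0.58 to 0.53), 0.17 for Sox10 (-0.93 to 1.26) and 0.13 for S100b (-0.59 to 0.84). Among the repair-type genes Ngfr had -0.73 (interval -1.79 to 0.33, adjusted p = 0.419), Gap43 0.02 (-0.74 to 0.78) and Gfra3 0.13 (-1.36 to 1.62). Ngfr was the 1 gene of the 8 with no overlap between the groups, against 22.3% of all genes tested. Without both shallow libraries the value was 0.12 for Mbp, -0.91 for Ngfr (adjusted p = 0.449), 0.14 for Prx, -0.07 for Pmp22, 0.17 for S100b and 0.11 for Gap43, while Sox10 (-0.000626) and Gfra3 (-0.33) had the opposite sign. The same 4 lists were again mostly negative beside Ngfr. Negative were 9 of 10 fibroblast genes (median -0.77, 0 called), all 10 macrophage genes (median -0.42, Cd68 called), all 8 T cell genes tested (median -1.02, Cd28 called) and 8 of 10 satellite cell and regenerating fiber genes (median -0.97, 0 called), and their part in the Ngfr values was not tested. The summed fibroblast level was 3611 to 8284 normalized CPM without lactation, against 2192 to 3156 with it. Of the other lists 5 of 7 smooth muscle and pericyte genes (median 0.15), 6 of 9 muscle fiber genes (median 0.29), 4 of 7 adipocyte genes (median 0.08) and 3 of 7 endothelial genes (median -0.09) were positive, with 0 called.

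Whether the effect of lactation differed between the times was tested by the interaction term. It gave 0 calls among the 8 genes and 0.00685% of all genes, with 1 gene called in the whole table, and 0 of the 8 had an unadjusted p under 0.05, against 4.42% of all genes. Among the 8 the largest difference was that of Gfra3, 1.42 log2 units (standard error 1.02, interval -0.75 to 3.58, adjusted p = 0.999, edgeR), and that of Ngfr was 0.45 (interval -1.01 to 1.90). The 3 myelin genes lay between -0.06 and 0.02, with intervals from -1.74 to 1.65 for Mbp.

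**Figure D2:**
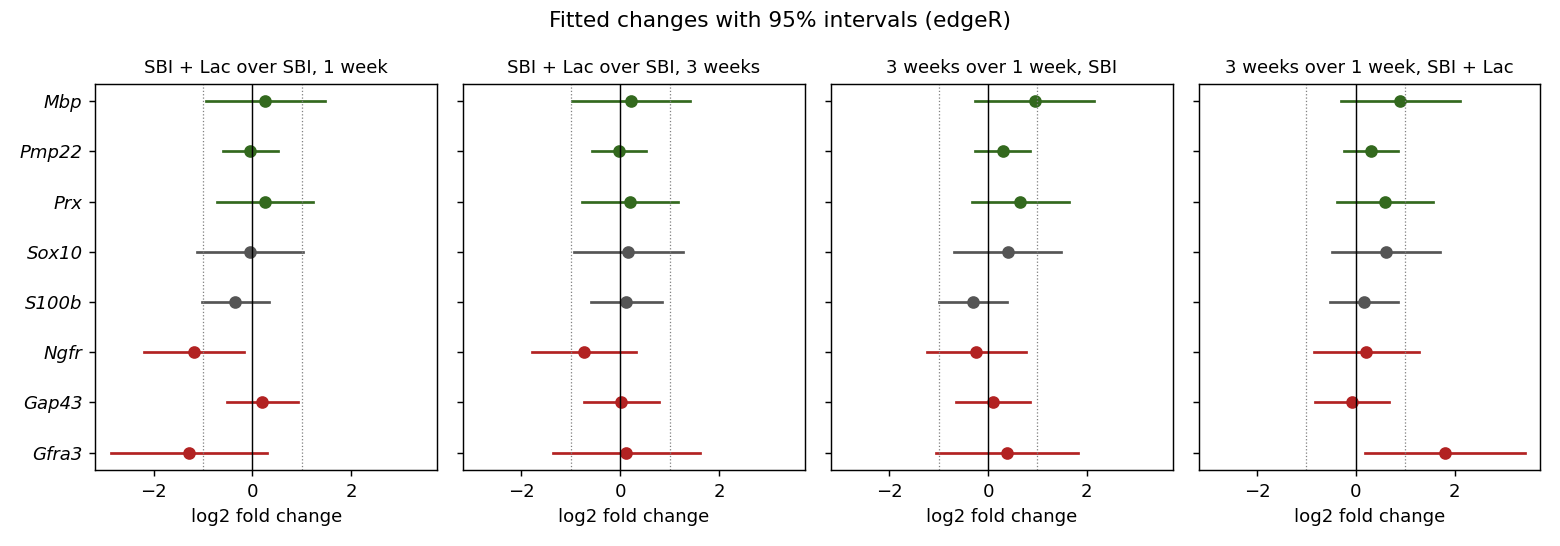
Fitted log2 fold change (horizontal axis) of each gene with its 95% interval in 4 comparisons, myelin genes in green, identity genes in grey and repair-type genes in red; dotted lines mark 1 log2 unit either way. All intervals cross 0 except those of Ngfr for lactation at 1 week (-2.19 to -0.17) and Gfra3 for time in lactating rats (0.19 to 3.43), and none of the genes passed after adjustment.

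Between 1 and 3 weeks the myelin genes were at higher means in both kinds of rat, without passing the test. The 1-week columns hold whole counts and the 3-week columns estimated counts with decimals, so time and the way of counting cannot be told apart here. In non-lactating rats the log2 fold change of 3 weeks over 1 week was 0.95 for Mbp (standard error 0.54, adjusted p = 0.355, edgeR), 0.66 for Prx and 0.29 for Pmp22. In lactating rats it was 0.90 for Mbp (0.54, adjusted p = 0.412), 0.59 for Prx and 0.31 for Pmp22. Sox10 had 0.40 and 0.62 and S100b -0.30 and 0.17 in non-lactating and lactating rats. None of the 8 genes was called in either comparison, against 1.46% and 0.774% of all genes, and an unadjusted p under 0.05 was found for 0 of the 8 in non-lactating rats (21.2% of all genes) and for 1, Gfra3, in lactating rats (18.1%).

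These values depended on the shallow libraries. The 4 deeper 3-week libraries had 16.5 to 34.1 normalized CPM of Mbp, all above the highest 1-week library at 15.2. But those left out were the shallow pair, chosen by depth after their low myelin values had been seen, so their removal fixes that direction. Without them the log2 fold change of Mbp was 1.34 (adjusted p = 0.0702, edgeR) in non-lactating and 1.19 (adjusted p = 0.122) in lactating rats, that of Prx 0.98 and 0.87, and that of Pmp22 0.55 and 0.53.

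The values of the repair-type genes over time were mixed in sign. Ngfr had a log2 fold change over time of -0.24 in non-lactating and 0.21 in lactating rats and Gap43 of 0.11 and -0.08. Gfra3 had 0.39 in non-lactating rats and 1.81 in lactating rats (standard error 0.76, unadjusted p = 0.0311, adjusted p = 0.221, edgeR), where all 3 later libraries were above all earlier ones. That difference sets 7, 6 and 6 counts against 16, 46 and 7. The libraries of the times did not overlap for 1 of the 8 genes in lactating rats, against 28.1% of all genes, and for 0 of the 8 in non-lactating rats, against 21.6%.

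Myelin and repair-type genes were then set against each other within each library as a log ratio. The measure was the mean log2 CPM of Ngfr, Gap43 and Gfra3 minus that of Mbp, Pmp22 and Prx, and is given as a description with no test, because the genes were chosen with results of these data known and the values are those already given gene by gene. A prior count of 2 stands in for the 0 counts of Gfra3. At 1 week it was -2.87, -3.05 and -3.52 in the non-lactating libraries and -3.61, -4.29 and -3.77 in the lactating ones, which did not overlap. The means were -3.15 ± 0.34 and -3.89 ± 0.36 log2 units (SD, n = 3 each). At 3 weeks it was -3.79, -4.53 and -3.09 in non-lactating and -4.43, -3.98 and -3.17 in lactating rats, with means of -3.80 ± 0.72 and -3.86 ± 0.64 that overlapped widely. The lactating minus non-lactating difference was thus -0.74 at 1 week and -0.05 at 3 weeks (-0.39 without both shallow libraries). With any 1 library left out the 1-week difference stayed between -0.93 and -0.54, and the 3-week difference ran from -0.42 to 0.30. The measure gives its 3 repair-type genes equal weight, and of these only Gfra3 did not overlap between the groups at 1 week. Gfra3 had 7, 6 and 6 counts in 1wk SBI + Lac. Ngfr overlapped, and Gap43 had a log2 fold change of 0.20. The measure was not also made without Gfra3.

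**Figure D3:**
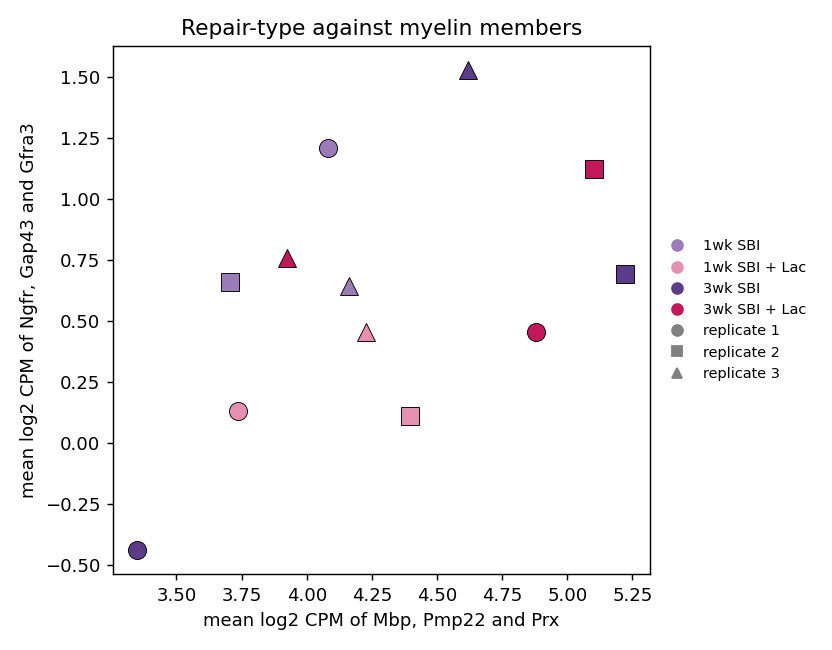
Mean log2 CPM of Ngfr, Gap43 and Gfra3 (vertical axis) against mean log2 CPM of Mbp, Pmp22 and Prx (horizontal axis), a point per library, colored by group and shaped by replicate number. The 3 points of 1wk SBI + Lac lie at 0.11 to 0.46 on the vertical axis, below those of 1wk SBI at 0.64 to 1.21, at similar myelin levels of 3.74 to 4.4 and 3.71 to 4.16. Gfra3, with 6 or 7 counts in each library of 1wk SBI + Lac, has the same weight as Ngfr and Gap43.

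The myelin genes varied together from library to library, and less so with the repair-type genes. After the mean of each time point was subtracted, Mbp and Prx had a Pearson r of 0.951 over the 12 libraries, Mbp and Pmp22 0.865, and Mbp and Sox10 0.919. The r of Mbp with Ngfr was 0.02, with Gap43 0.15 and with Gfra3 0.55. Without the shallow libraries these were 0.838 with Prx, 0.421 with Pmp22 and 0.643 with Sox10, and -0.18 with Ngfr, -0.06 with Gap43 and -0.40 with Gfra3. The correlation of Mbp with Pmp22 and with Sox10 thus rested in part on that pair, and that with Gfra3 changed sign without it. Prx and Pmp22 had an r of 0.909, and of 0.629 without the shallow libraries. The points share library depth, and the values describe these libraries only.

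Ranked among all 14599 genes by the same measure, the 3 genes most like Mbp included Slc26a9 (r = 0.966, and 0.870 without the shallow pair) and Prx (0.951). Mbp was also among the 3 genes most like Prx. Pmp22 was most like Hmgb1l1 (0.944, and 0.590 without the pair), Gja5 (0.943) and Kank4 (0.938), none of which is a myelin gene. Sox10 was most like Diras2 (0.993, and 0.971 without the pair), Insc (0.956) and Caskin1 (0.951), and S100b most like Fsd1 (0.959), Arhgef19 (0.927) and Lrat (0.896).

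The genes most like Ngfr were others, Atp2b4 (r = 0.950, and 0.963 without the shallow pair), Pcdh7 (0.930) and Olfml2a (0.911). Gap43 was most like Ndp (0.854), Tm4sf4 (0.852) and C1h11orf98 (0.846), and Gfra3 most like Tnfsf9 (0.938), Pde8b (0.928) and Wt1 (0.925). Without the shallow pair the values of Gfra3 were 0.861 with Tnfsf9, 0.65 with Pde8b and 0.886 with Wt1. With Gap43 the r of Ngfr was 0.21 and with Gfra3 0.08, so these correlations were weak too.

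**Figure D4:**
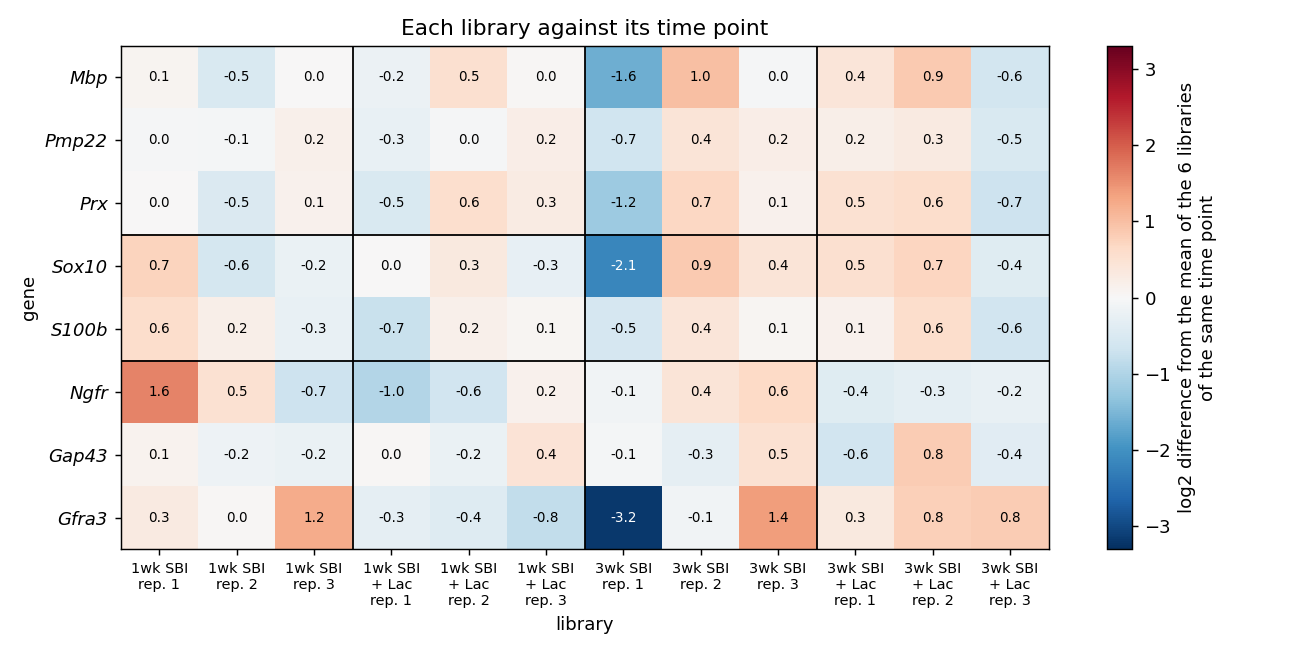
Log2 difference of each library (columns) from the mean of the 6 libraries of its time point for each gene (rows), in color and printed in each cell. Mbp, Pmp22, Prx and Sox10 are all low in 3wk SBI replicate 1 (-1.6, -0.7, -1.2 and -2.1) and all high in 3wk SBI replicate 2, while Ngfr stands out in 1wk SBI replicate 1 (1.6).

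Other genes of the myelin sheath gave no call either. Of 20 further myelinating genes 11 were higher and 9 lower in lactating rats at 1 week (median log2 fold change 0.14) and 14 higher and 6 lower at 3 weeks (median 0.38, where the median of all genes was -0.02), with 0 called at either time. Mag, the adhesion protein next to the axon, had log2 fold changes of -0.54 at 1 week and -0.53 at 3 weeks at levels under 1.4 normalized CPM, and Egr2, the factor that drives myelination, had -0.21 and 0.42. Over time 14 of the 20 were higher at 3 weeks in non-lactating rats (median 0.27) and 18 in lactating rats (median 0.34), with 0 called in both.

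Of 10 further genes of the Schwann lineage 9 could be tested, and 0 were called for lactation at either time (median -0.28 at 1 week and 0.11 at 3 weeks). Erbb3, the receptor through which neuregulin from the axon keeps Schwann cells alive and tells them how much myelin to make, was 16.9, 10.7 and 5.58 normalized CPM in 1wk SBI, against 5.18, 4.58 and 5.28 in 1wk SBI + Lac. In the 3-week libraries it was 5.04, 6.38 and 8.45 in 3wk SBI, against 4.10, 4.18 and 2.64 in 3wk SBI + Lac. Of all genes, 28.4% did not overlap between the groups at 1 week and 22.3% at 3 weeks. For Erbb3 every lactating library was below every non-lactating one at both times. The log2 fold change was -1.14 at 1 week (standard error 0.32, adjusted p = 0.0912, edgeR), with adjusted p from 0.00493 to 0.382 over the alternatives and 0.0162 in DESeq2, and -0.85 at 3 weeks (0.34, adjusted p = 0.169). Without 1wk SBI replicate 3 the 1-week values of Erbb3 and of its partner Erbb2 passed the cutoffs in edgeR, as that of Ngfr did, at -1.46 (adjusted p = 0.00493) and -1.19 (adjusted p = 0.00952). That fit called 235 genes of the whole table, against 37 with all libraries. The r of Erbb3 with Ngfr was 0.873 (0.924 without the shallow pair), against 0.01 with Mbp and 0.20 with Sox10.

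Erbb2, present in many cell types, gave -0.89 at 1 week (adjusted p = 0.147, edgeR) and -0.86 at 3 weeks (adjusted p = 0.167, and -0.63 without both shallow libraries). Nrg1, the neuregulin gene itself, was under 0.7 normalized CPM in every library and gave -1.05 and -1.43 (adjusted p = 0.430 and 0.357). Of the 20 ligands and receptors of the neurotrophin, GDNF and neuregulin families, which include these 3, 17 were tested and 0 were called at 1 week (7 higher and 10 lower, median -0.06) or at 3 weeks (4 higher and 13 lower, median -0.38).

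Of the ligands of Ngfr, Bdnf, Ntf3 and Ntf4 were not called. Bdnf and Ntf3 reached at most 1.29 normalized CPM (Ntf3) in any library, and Ntf4 was higher. Bdnf had log2 fold changes of 0.16 at 1 week and -0.01 at 3 weeks and Ntf3 0.18 and -0.38. Ntf4 was 2.77, 2.95 and 3.47 normalized CPM in 1wk SBI, against 4.46, 4.61 and 4.80 in 1wk SBI + Lac. The 1-week groups of Ntf4 did not overlap, as was so for 28.4% of all genes. Its log2 fold change was 0.60 at 1 week (SE 0.18, adjusted p = 0.0986, edgeR) and 0.25 at 3 weeks (SE 0.19, adjusted p = 0.466, edgeR). Of the receptors that signal beside Ngfr, Ntrk2 had 0.05 at 1 week and -0.60 at 3 weeks (adjusted p = 0.112, edgeR), and Ntrk3 had 0.33 and -0.74.

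On the Gfra3 pathway the ligand Artn was at 0 to 0.709 normalized CPM and gave -0.64 and -0.74 (adjusted p = 0.653 and 0.635, edgeR). The shared signalling receptor Ret was 2.18, 2.68 and 4.03 normalized CPM in 1wk SBI, against 2.20, 3.46 and 2.79 in 1wk SBI + Lac, and 5.15, 3.47 and 7.53 in 3wk SBI, against 2.31, 2.86 and 3.74 in 3wk SBI + Lac. The groups overlapped at both times, and the log2 fold changes were -0.07 at 1 week and -0.93 at 3 weeks (standard error 0.32, adjusted p = 0.113, and -1.11 without both shallow libraries). Gdnf, which denervated Schwann cells secrete, had at most 20 counts in a library and was not tested.

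Of 20 further genes known from repair-type and denervated Schwann cells 13 had enough counts. For lactation 1 was called at 1 week, against 0.253% of all genes, and 0 at 3 weeks, against 0.74%. Cdh2, N-cadherin, an adhesion protein of Schwann cells that regenerating muscle also makes, was 6.25, 4.84 and 2.88 normalized CPM in 1wk SBI, against 1.21, 2.00 and 1.22 in 1wk SBI + Lac. It was lower in every lactating library, and 28.4% of all genes did not overlap at 1 week. The log2 fold change of Cdh2 in lactating over non-lactating rats at 1 week was -1.67 (standard error 0.31, adjusted p = 0.0296, edgeR). At 3 weeks its log2 fold change was -0.98 (adjusted p = 0.110). The call at 1 week was lost in 5 of 6 fits that left out a library, all but that without 1wk SBI replicate 3, with adjusted p up to 0.192. Counted together, 9 of the 13 were lower and 4 higher in lactating rats both at 1 week (median -0.38) and at 3 weeks (median -0.13). Among the higher ones at 3 weeks were Jun and Atf3, transcription factors induced by injury in Schwann cells and in many other cells, which are named here after their values were seen. Jun was 143.1, 120.7 and 108.1 normalized CPM in 3wk SBI, against 207, 179.3 and 203.1 in 3wk SBI + Lac, and Atf3 was 9.12, 5.20 and 4.65, against 11.1, 11.8 and 10.7. Every lactating library was higher in both genes, with log2 fold changes of 0.67 for Jun (adjusted p = 0.0141, edgeR) and 0.90 for Atf3 (adjusted p = 0.0474, edgeR), which passed the cutoff on the adjusted p but not that on the fold. At 3 weeks the groups did not overlap for 22.3% of all genes. Neither gene was refitted without the shallow libraries. At 1 week Jun and Atf3 had 0.18 (adjusted p = 0.454, edgeR) and -0.38 (adjusted p = 0.340, edgeR).

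Over time Ncam1, an adhesion molecule of denervated Schwann cells and also of denervated and regenerating muscle fibers, was the called gene of the same list. Of all genes 1.46% were called over time in non-lactating and 0.774% in lactating rats. Ncam1 was 150 ± 64.9 normalized CPM in 1wk SBI but 32.1 ± 5.86 in 3wk SBI, and in lactating rats 71.6 ± 19.6 at 1 week against 21.9 ± 5.25 at 3 weeks (SD, n = 3 each). It fell by 2.23 on the log2 scale in non-lactating rats (adjusted p = 0.00879, edgeR) and by 1.69 in lactating rats (adjusted p = 0.0400). The first call was lost without 3wk SBI replicate 2 (adjusted p = 0.0518) and the second in 5 of 6 fits that left out a library, all but that without 1wk SBI + Lac replicate 2, with adjusted p up to 0.148. Without both shallow libraries the first was kept (-2.33, adjusted p = 0.0436, edgeR) and the second was lost (-1.54, adjusted p = 0.133, edgeR). With no low-count filter the second was lost too (-1.69, adjusted p = 0.0767, edgeR). The satellite cell and regenerating fiber genes, a list that also holds Ncam1, were at a summed 328 to 854 normalized CPM in 3wk SBI and 273 to 315 in 3wk SBI + Lac, below both 1-week groups.

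Of 10 neuron and axon genes 7 were tested. For lactation 1 was higher and 6 lower at 1 week (median -0.32, 0 called) and 2 were higher and 5 lower at 3 weeks (median -0.54, 1 called, against 0.74% of all genes). Over time 1 was higher and 6 lower in non-lactating rats (median -0.41, 2 called, against 1.46% of all genes) and 2 were higher and 5 lower in lactating rats (median -1.14, 0 called, against 0.774%). Stmn2, a microtubule regulator of growing axons, was 5.58, 4.89 and 7.67 normalized CPM in 3wk SBI, against 2.02, 3.71 and 2.09 in 3wk SBI + Lac. It was lower in every lactating library, and 22.3% of all genes did not overlap at 3 weeks. The log2 fold change of Stmn2 in lactating over non-lactating rats at 3 weeks was -1.18 (standard error 0.29, adjusted p = 0.0426, edgeR). That call was lost in the fits without 3wk SBI replicate 3, 3wk SBI + Lac replicate 1 or 3wk SBI + Lac replicate 3 (adjusted p up to 0.194). It was also lost without both shallow libraries (adjusted p = 0.117) and with edgeR on only the libraries compared (adjusted p = 0.0707). At 1 week Stmn2 had a log2 fold change of -0.32 (adjusted p = 0.554), and the difference between the times, -0.86, had an adjusted p of 0.999. Prph, the intermediate filament peripherin of peripheral neurons, is named after its values were seen. It was 1.61, 2.11 and 1.93 normalized CPM in 3wk SBI, against 2.93, 2.81 and 2.97 in 3wk SBI + Lac. Its groups did not overlap, as was so for 22.3% of all genes, and its log2 fold change was 0.60 (adjusted p = 0.140, edgeR). Prph was not refitted without the shallow pair. Uchl1, a deubiquitinase abundant in neurons, was 2.75 ± 0.327 normalized CPM in 1wk SBI but 0.946 ± 0.201 in 3wk SBI (SD, n = 3 each) and fell by 1.56 on the log2 scale (adjusted p = 0.0240, or 0.0646 without both shallow libraries). Nefh, the heavy neurofilament chain, was at 1.06, 0.742 and 0.281 normalized CPM in 1wk SBI and 0.107, 0 and 0.0480 in 3wk SBI (adjusted p = 0.0359, or 0.0781 without the pair), where no fold is given because so few counts remained. Of the 6 fits that left out a library Uchl1 was lost in 4 and Nefh in 5, and both calls held in that without 1wk SBI replicate 3. Nefh was also lost with edgeR on only the libraries compared (adjusted p = 0.0786). In lactating rats Uchl1 had a log2 fold change over time of -1.28 (adjusted p = 0.0912, edgeR), and Nefh had 2, 5 and 19 counts at 1 week against 0, 2 and 1 at 3 weeks (adjusted p = 0.183, edgeR). The cells that made the RNA of Stmn2, Prph, Uchl1 and Nefh were not identified.

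Perineurial and endoneurial fibroblast genes, which line the nerve itself, gave 0 calls among 9 tested for lactation, with medians of 0.06 at 1 week and 0.05 at 3 weeks. Sox8, a relative of Sox10 that was the 1 oligodendrocyte-list gene with enough counts and is also known from muscle satellite cells, is named here after its values were seen. It was 2.02, 1.33 and 1.64 normalized CPM in 1wk SBI, against 0.328, 0.237 and 0.645 in 1wk SBI + Lac, and 1.18, 1.67 and 1.36 in 3wk SBI, against 0.553, 0.488 and 0.110 in 3wk SBI + Lac. Every lactating library was lower at both times, with log2 fold changes of -2.0 and -1.68 and adjusted p = 0.0556 and 0.0706 in edgeR, so that it missed the threshold at both times. Groups did not overlap for 28.4% of all genes at 1 week and 22.3% at 3 weeks. Sox8 was not refitted without the shallow pair.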

How the data were processed

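Gene counts of 12 pubocaudalis libraries were analysed. At 1 week the authors deposited whole read counts, and at 3 weeks the authors deposited expected counts with decimals in 26.6% to 44.0% of values, not normalized. The submitters' processing notes name Salmon. The version, genome build and annotation are not given in the sources used here. The design had assumed whole counts throughout, so expected counts were rounded. The kit was stranded, paired-end and polyA-selected.

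Counts were tested with edgeR 4.0.16 under R 4.3.3 (TMM, filterByExpr, robust quasi-likelihood fit over all 12 libraries and 4 groups, Benjamini-Hochberg adjustment over 14599 genes), and a call needed an adjusted p below 0.05 and a log2 fold change beyond 1 either way. Log2 CPM used a prior count of 2. On data simulated for lactation at 1 week with 14599 genes, of which 14524 were tested, edgeR called 159 of 200 genes changed by 1.5 log2 units. All 159 had the right sign, and 4 unchanged genes were called. The 200 were drawn at random from genes of all levels, so the share found was not measured for genes of low counts such as Gfra3.

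Alternatives were RLE and upper-quartile factors, DESeq2 1.42.0, the compared libraries alone, other low-count filters, a replicate block, adjusted p alone, each library left out and, added after seeing the data, both shallow 3-week libraries left out. The 8 genes and all gene lists were chosen with earlier results of these data known. All 8 are named in each comparison. Of other lists the called genes, ligands and receptors of the named genes, and Mag and Egr2 are named, and for the 8 genes those among the 3 of highest correlation. Some genes that this rule takes are not reported here. Libraries of a group were not copies (chi-square over degrees of freedom 20.8 to 95.3). The labels name different rats for each pool, and p-values measure the spread between pools.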

Additional observations from a re-analysis of the deposited data

How the results depend on the processing

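No call was made among the 8 genes in 82 of 83 alternatives over the 5 comparisons. The exception was lactation at 1 week, where leaving out a library gave 0 to 1 called genes, the 1 being Ngfr without 1wk SBI replicate 3. Over all genes the number called moved more. At 1 week it was 37, with a low of 2 (without 1wk SBI + Lac replicate 1) and a high of 333 (DESeq2 on the compared libraries), 110 with edgeR on those libraries and 8 with the replicate block. It was 235 without 1wk SBI replicate 3, the fit in which Ngfr was called. At 3 weeks it was 108, with a low of 22 (without 3wk SBI + Lac replicate 1) and a high of 371 (adjusted p alone), and 50 without both shallow libraries. Over time it was 213 (61 to 737) in non-lactating and 113 (27 to 293) in lactating rats, or 95 and 53 without that pair, and for the interaction 1 (1 to 11).

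The replicate numbers did not pair the libraries. Same-numbered libraries deviated from their group means with r from -0.233 to -0.0046. With the replicate block, 51 of 57 results kept their direction and side of the threshold. Reversed were Pmp22 for lactation at 3 weeks (0.016) and, in the interaction, Mbp (0.11) and Prx (0.078), all near 0. The calls of Cdh2 (-1.65, adjusted p = 0.0679), Stmn2 (-1.13) and Nefh were lost. Without both shallow libraries Sox10 (-0.000626) and Gfra3 (-0.33) for lactation at 3 weeks, Pmp22 in the interaction (-0.026) and Gap43 over time in lactating rats (0.090) reversed. The causes of these shifts were not tested.

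Leaving out each library in turn turned the sign of uncalled log2 fold changes, with these ranges. For lactation at 1 week they were -0.17 to 0.061 for Pmp22, -0.31 to 0.45 for Sox10, -0.68 to 0.051 for Egr2 and -0.25 to 0.21 for Ret. For lactation at 3 weeks they were -0.16 to 0.90 for Mbp, -0.27 to 0.20 for Pmp22, -0.12 to 0.58 for Prx, -0.22 to 0.56 for Sox10, -0.19 to 0.34 for S100b, -0.67 to 0.36 for Gap43 and -0.26 to 1.6 for Gfra3. In the interaction they were -0.42 to 0.64 for Mbp, -0.23 to 0.24 for Pmp22, -0.38 to 0.33 for Prx, -0.28 to 0.62 for Sox10, -0.30 to 0.86 for Ngfr and -0.87 to 0.16 for Gap43. Over time they were -0.63 to 0.51 for Ngfr, -0.23 to 0.28 for Gap43 and -1.08 to 0.84 for Gfra3 in non-lactating rats, and -0.77 to 0.22 for Gap43 and -0.14 to 0.39 for S100b in lactating rats. Signs of changes this small are not settled by 3 pools a group, and low counts limit Gfra3 (0 and 7) and Sox10 (3 and 11) in the shallow libraries.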
